A study of Mus musculus with 32 samples.

Results

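Of the 39017 rows of the total RNA tables, 15982 had no row in the table of ribosome footprints counted in coding sequence (CDS), and 752 of these 15982 had a mean of at least 100 counts over the 16 total RNA libraries. These 752 genes are described here. They were chosen by their mean count over all libraries, control and IFN-β together, so that their abundance is not a result. With the mean taken over the control libraries alone, 719 of the 752 still reached 100 counts and 33 did not, which left room for a gene to enter through its IFN-β libraries. The median of their mean counts was 393 and the highest was 80871. Just inside the limit lay Gm15663 (a mean of 100 counts), Dleu2 (100.1) and 4930571N24Rik (100.4), and just outside it Gm26720 (99.6), A930012L18Rik (99.2) and Tsix (99.0).

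Neural stem cells (NSCs) of the ventricular-subventricular zone of C57BL/6 mice aged 8 to 12 weeks were grown ex vivo with growth factors. They received vehicle (control) or IFN-β for 2 h or 14 h, and every culture received cycloheximide shortly before lysis. Total RNA and ribosome footprints were taken from the same lysates and depleted of ribosomal RNA, with 4 libraries in each of the 4 groups of treatment and time for each kind of RNA, 32 in all. The 2 h samples are numbered 2, 3, 5 and 6 and the 14 h samples 1 to 4. All cells came from mice of 1 strain, no engineered allele is named in the labels, and the cultures are a model of these cells outside the niche. In such bulk samples, fewer cells expressing a gene and less of its RNA per cell cannot be told apart.

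Genes without a coding sequence give rise to long noncoding RNAs, microRNA precursors, pseudogene transcripts and the structured RNAs of ribosomes and RNA processing. Antisense genes are transcribed from the strand opposite to another gene, often across the exons of a protein-coding gene. Type I interferons such as IFN-β bind a common receptor and, through STAT and IRF transcription factors, switch on genes of antiviral defence and antigen presentation, and they slow the cell cycle of many cells.

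Total counts were 4362531 to 7877753 in the control and 3992402 to 5692950 in the IFN-β libraries at 2 h, and 1370008 to 2442404 and 1934554 to 2737111 at 14 h. Footprint libraries held 2956297 to 10505108 counts. In the footprints, the summed level of 11 NSC markers was 10797 to 18200 counts scaled to library size (CPM) per library, that of 6 neuroblast or neuron markers 772 to 1621, of 6 oligodendrocyte markers 95.7 to 492, of 7 microglia markers 11.9 to 45.4, with 2 of the 7 at 0, and of 5 endothelial markers 3.91 to 24.7. At 14 h the neuroblast or neuron markers summed to 1092 to 1195 CPM in the control and 1453 to 1621 in the IFN-β libraries, and the oligodendrocyte markers to 95.7 to 126 and 218 to 294, and their part in the results at 14 h was not tested. The NSC markers had few counts in total RNA, where the mean counts of the 11 summed to 903, against 104921 in footprints. Nes had a mean of 488 total RNA and 24044 footprint counts, Vim 32.6 and 34096, and Sox2 0 and 1975.

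A pair of control libraries stood apart in the share of counts on 6 rows, Gm42418, Gm15564, Gm24187, Mir6236, ENSMUSG00000045999 and ENSMUSG00000082697, which were singled out after their values were seen. Gm24187 had 10 to 34 counts in 15 libraries and 1359 in control replicate 3 at 14 h, through which alone it reached a mean of 103 counts. Control replicate 3 at 14 h had 41.9% of its counts on these 6 rows, of which Gm42418 alone held 39.3%, and control replicate 5 at 2 h had 14.6%, of which ENSMUSG00000045999 held 8.01% and Gm15564 5.52%. In the other 14 libraries the 6 rows held 0.270% to 2.22%. At 2 h the changes of Gm15564 (-4.96, edgeR adjusted p = 0.596) and ENSMUSG00000045999 (-3.82, adjusted p = 0.509) were not called, and without control replicate 5 they were 2.78 and 0.83 (adjusted p of at least 0.437). The other 746 members held 14.3% of the counts of control replicate 3 at 14 h, 12.0% of those of control replicate 5 at 2 h, and 24.7% to 34.3% elsewhere, as the plot of library shares shows.

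**Figure D1:**
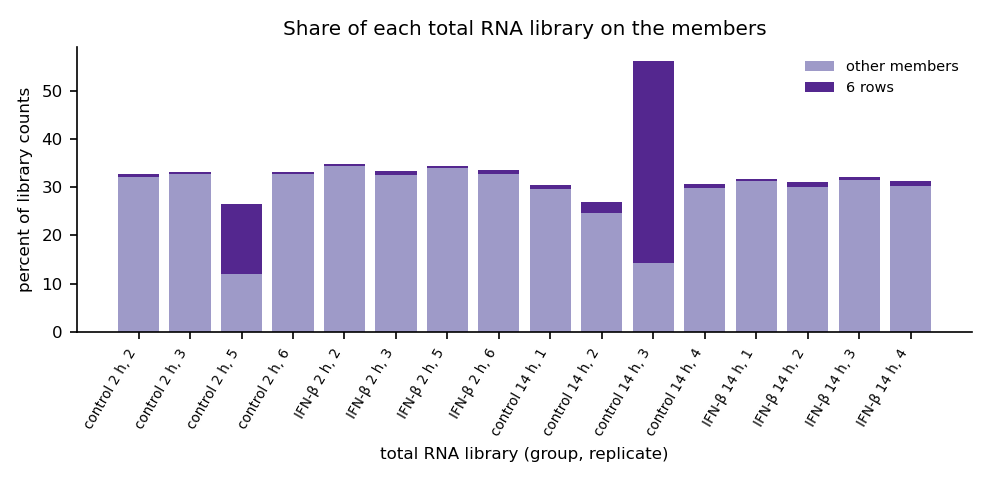
Share of each total RNA library's counts (percent) on the 6 rows (dark) and on the other members (light), by group and replicate. The 6 rows hold 41.9% of control replicate 3 at 14 h and 14.6% of control replicate 5 at 2 h, against at most 2.22% in the other libraries.

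Most members lie opposite a gene with a CDS row. Of the 752, 727 matched an entry of GENCODE M21 by identifier and 25 did not. The matched genes were annotated as antisense (423), lincRNA (131), processed transcript (108), pseudogene (29), miRNA (9) or misc RNA (8). A further 4 were annotated as protein coding, although they had no CDS row, and the rest fell into other types. An exon of 541 members (71.9%) shared bases with an exon of a gene with a CDS row on the other strand, here called the partner. A further 89 lay opposite the gene body but no exon of such a gene, and 45 opposite an exon of a gene without a CDS row. Opposite 52 members lay neither an annotated exon nor the body of a gene with a CDS row. The 541 members had 527 distinct partners, 28 members shared a partner with another member, and 70 had several, of which the one with the highest footprint count was taken. The shared exon sequence had a median of 337 bases (2 to 5076) and covered a median of 25.4% of the member's exons, with over 90% covered in 57 members.

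Of the 541 members, 506 had more total RNA counts than their partner, 372 of them at least 10 times as many, and 35 had fewer. The median of the mean counts was 442 for members and 20.7 for their partners, while the partners' median footprint count was 369. Since a mean of 100 counts chose the members, the same was counted over all rows without a CDS row that had an exon partner with a mean of at least 100 footprint counts: 572 of 840 (68.1%) had more total RNA counts than their partner, with medians of 135 and 23.8. Opposite partners with a mean under 10 footprint counts, 160 of 449 rows had more counts than their partner, with a median of 1 count. Across the 541 pairs, the Spearman correlation of the member's total RNA count with the partner's footprint count was 0.39, and that of the partner's own total RNA count with its own footprint count 0.28. These are descriptions across genes that share libraries and depth, and genes are not independent replicates.

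**Figure D2:**
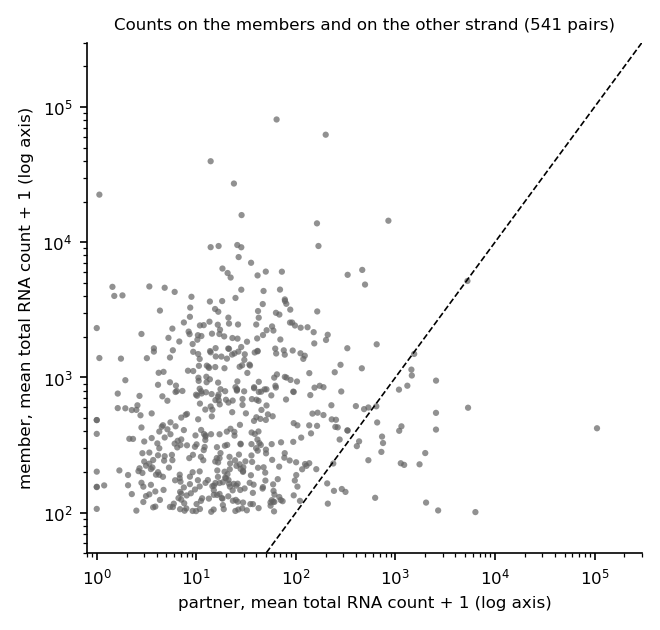
Mean total RNA count plus 1 of each member (vertical axis, log scale) against that of its partner on the other strand (horizontal axis, log scale), with 541 pairs and a dashed line of equal counts. 506 points lie above the line and 35 below.

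The library kit of the total RNA keeps strand information, and the strand setting of the counting is not given in the sources used here. Reads of a member and reads of its partner can therefore not be told apart in the values below. The partner's footprints were counted from a separate library. Their change is given beside that of most members described singly, and not for the members of the lists of noncoding genes. Rmrp, the RNA of the RNase MRP ribozyme, showed the reverse order: it had a mean of 420 counts and its partner Ccdc107 a mean of 105956 total RNA counts, although Ccdc107 had a mean of only 187 footprint counts.

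The sequences where member and partner meet are shown first for Mir6381, a microRNA gene on the minus strand of chromosome 3 inside Gbp2, a guanylate-binding protein of interferon-driven defence. They are given because the 24 bases shared with a Gbp2 exon are all that ties this member to its partner. In GRCm38 these bases lie at chr3:142623860-142623883, read from either strand.
Mir6381 strand: ctgtcctcttcccagctagcttgt
Gbp2 strand: acaagctagctgggaagaggacag
The mature microRNAs of RefSeq (GRCm38.p6) are shown for Mir6381 and Mir6236, both described below, with the seed, bases 2 to 8, in capitals. The first lies at chr3:142623925-142623945 on the minus strand and the second at chr9:110281353-110281371 on the plus strand. Their seeds differ, and neither mature sequence overlaps the 24 shared bases.
mmu-miR-6381: cAGGAUGCuggugacaugagu
mmu-miR-6236: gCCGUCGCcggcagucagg

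At 2 h of IFN-β, 12 of the 752 members changed at an adjusted p under 0.05 (edgeR's quasi-likelihood test, p-values adjusted by Benjamini and Hochberg over the 11639 genes tested). Of these, 11 rose and 1 fell. Among all genes tested 0.722% were called higher and 0.0773% lower. The members' share called was 1.60%, against 0.682% of all genes with a CDS row and 0.883% (15 of 1698) of those with a mean of at least 100 total RNA counts, a more like depth. The median log2 fold change was 0.00 for the members and 0.04 for all genes. At 14 h, 87 of 751 members tested changed, 51 higher and 36 lower, while 3.47% of all 7520 genes tested were called higher and 2.83% lower. That is 11.6% of the members, against 5.45% of all genes with a CDS row and 8.38% (142 of 1695) of those averaging at least 100 counts. The members' median was 0.09 and that of all genes -0.01. Of the 33 members with a control mean under 100, which reached a mean of 100 only through their IFN-β libraries, 7 were among the 11 rises at 2 h and 13 among the 51 at 14 h, so that the members' share of rises is partly fixed by how they were chosen. In all, 8 members changed at both times and 4 at 2 h alone. Without control replicate 5, 8 members were called at 2 h, and without control replicate 3, 68 were called at 14 h. At 14 h total counts alone, without TMM scaling, gave 37 (23 higher and 14 lower), and leaving out 1 library in turn gave 35 to 79, with 35 without IFN-β replicate 1, 39 without replicate 2, 57 without replicate 3, 53 without replicate 4 and 57 without control replicate 4. At 2 h leaving out 1 library gave 6 to 11, with 6 without IFN-β replicate 2 or 5 and 7 without replicate 6. At 2 h DESeq2 called 18 members higher and 6 lower, and edgeR on total counts alone 10 higher and 3 lower.

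By annotated type, the 423 antisense genes held 10 of the 11 rises at 2 h, and at 14 h 39 of the 51 rises and 20 of the 36 falls. They make up 56.25% of the members, and 2.36% of them were called at 2 h and 13.9% at 14 h. Of the 131 lincRNAs none changed at 2 h and 11 changed at 14 h, 5 higher and 6 lower, and of the 108 processed transcripts 1 was lower at 2 h and 3 were higher and 7 lower at 14 h. By what lies opposite, members with a partner held all 11 rises at 2 h and 43 of the rises and 26 of the falls at 14 h. These are 71.9% of the members, and 2.03% of them were called at 2 h and 12.8% at 14 h. Of all members tested, 1.60% and 11.6% were called. Of the rises, 7 of 11 at 2 h and 13 of 51 at 14 h were on members with a control mean under 100 counts. These shares by type and by what lies opposite are therefore partly fixed by how the members were chosen. Of the 52 members facing no annotated exon and no body of a gene with a CDS row, none changed at 2 h and 4 (7.69%) at 14 h.

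Members with large rises lay opposite interferon-stimulated genes. Of a list of 142 such genes 137 had a CDS row, 16 of these had an exon of a row without CDS opposite, and 6 were partners of members: Ifi35, Psmb8, Gbp2, Dhx58, H2-T22 and H2-Q4. The list was chosen with earlier results of these data known. Each of the 6 members was called higher at both times, and Gm20478 was called with a change of like size at 14 h. Of these 7 members, 6 had a control mean under 100 counts, from 1.75 for Mir6381 to 77.8 for Gm20496, and reached the limit only through their IFN-β libraries, so that a rise was fixed by the rule and their values are a description. The exception was A930015D03Rik, with a control mean of 132. The next largest rise called at 14 h was 2.06 on the log2 scale. Of the 7, 4 lie in the major histocompatibility complex region of chromosome 17.

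Gm11626 (chr11:101456576-101457390, minus strand) shares 290 of its 333 exon bases with Ifi35, an interferon-induced protein. Its level was 1.5, 0.648, 0.583 and 0.774 CPM in the 4 control libraries at 2 h and 25.6, 18.7, 22.3 and 19 CPM with IFN-β. At 14 h it was 0.383, 0, 1.46 and 0.416 CPM in control and 352, 361, 307 and 278 CPM with IFN-β. The groups did not overlap at either time, and the 4 control libraries at 14 h held 3 counts in all against 3272 with IFN-β. The log2 fold change at 2 h was 4.63 ± 0.34 (edgeR adjusted p = 3.65e-05), and at 14 h the ratio was 816-fold with a 95% counting interval of 279 to 3960 that covers counting error only (adjusted p = 1.7e-10 in edgeR). Ifi35 footprints changed by 3.69 ± 0.33 (SE) at 2 h and 8.41 ± 0.17 at 14 h on the log2 scale, while the total RNA counted on Ifi35 itself changed by 0.63 and 1.22 and was not called at either time.

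Gm20496 (chr17:34199316-34205449, minus strand) lies opposite Psmb8, a subunit of the immunoproteasome, with 498 of its 663 exon bases shared. Control libraries at 2 h had 26.7, 30.2, 25.1 and 16.7 CPM and IFN-β libraries 335, 441, 314 and 337 CPM. At 14 h the values were 18.4, 13.4, 21.9 and 12.5 CPM and 4107, 4353, 4155 and 3566 CPM. No IFN-β library overlapped a control library, and the rise was 3.89 ± 0.29 (edgeR adjusted p = 3.68e-05) at 2 h and 7.92 ± 0.31 (edgeR adjusted p = 1.27e-10) at 14 h. Psmb8 footprints rose by 4.51 ± 0.38 and 9.08 ± 0.13. In total RNA Psmb8 itself had 0 to 16 counts per library, and in the IFN-β libraries at 14 h it had 9, 2, 16 and 6, where Gm20496 had 10495, 11565, 11640 and 7122 counts.

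Mir6381 (chr3:142623860-142623946, minus strand) had 0, 0.973, 0.292 and 0.929 CPM in control and 45.8, 182, 57.9 and 38.3 CPM with IFN-β at 2 h. At 14 h it had 0, 0, 0 and 0.416 CPM and 38, 26.7, 40 and 30.5 CPM. IFN-β replicate 3 was highest among the 2 h libraries, also in the count on Gbp2 itself (210 counts against 20 to 85 in the others). The change was 7.04 ± 0.73 (edgeR adjusted p = 2.99e-04) at 2 h. At 14 h 1 count in the 4 control libraries stood against 341 with IFN-β, a ratio of 255 with a counting interval of 45.5 to 10110 (edgeR adjusted p = 3e-08). Gbp2 footprints rose by 5.77 ± 0.29 at 2 h and 7.86 ± 0.16 at 14 h, and the total RNA on Gbp2 by 4.57 at 2 h. The change of Mir6381 did not differ detectably between the times (0.70 ± 1.87, adjusted p = 0.955). These libraries were counted over the gene, and the mature microRNA was not measured.

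Dhx58os (chr11:100687417-100697520, plus strand) shares 141 bases with Dhx58, a cytosolic sensor of viral RNA also known as LGP2. Its levels were 3.63, 1.78, 4.08 and 3.41 CPM in control and 17.3, 19.2, 16.6 and 18.6 CPM with IFN-β at 2 h. The 14 h levels were 1.92, 1.67, 1.46 and 2.49 CPM and 245, 161, 291 and 136 CPM. The groups were separate at both times, with 2.53 ± 0.29 (edgeR adjusted p = 6.75e-04) at 2 h and 6.64 ± 0.35 (edgeR adjusted p = 2.45e-09) at 14 h. Dhx58 footprints rose by 4.32 ± 0.62 and 9.84 ± 0.21.

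**Figure D3:**
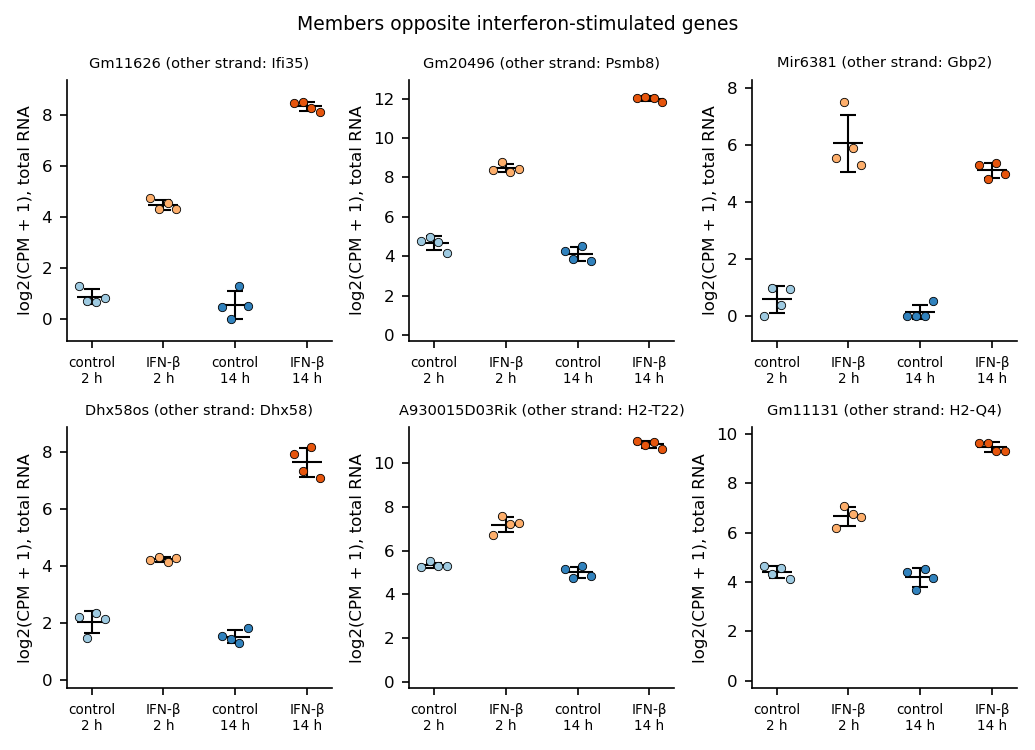
Total RNA level, log2(CPM + 1), of the members opposite interferon-stimulated genes in each library, with the partner named above each panel, bars for the group mean and whiskers for 1 SD (n = 4). At 14 h every IFN-β library lies above every control library in all panels.

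The remaining rises of this size were opposite class I histocompatibility genes, whose classical members present peptides at the cell surface. A930015D03Rik (chr17:35994453-36038435, plus strand) shares 1003 bases with H2-T22, had 35.3, 26.2, 38 and 27.8 CPM in control and 2063, 1862, 1999 and 1614 CPM with IFN-β at 14 h, and changed by 1.95 ± 0.25 (edgeR adjusted p = 0.00179) at 2 h and 5.85 ± 0.26 (edgeR adjusted p = 4.84e-10) at 14 h. Gm11131 (chr17:35377021-35380292, minus strand), opposite H2-Q4, had 20.3, 11.7, 21.9 and 17 CPM and 795, 792, 629 and 631 CPM at 14 h and changed by 2.35 ± 0.27 (edgeR adjusted p = 7.36e-04) and 5.30 ± 0.27 (edgeR adjusted p = 2.16e-09). Gm20478 (chr17:36167982-36171805, plus strand), opposite Gm8909, had 6.13, 2.79, 0 and 2.91 CPM and 205, 245, 182 and 245 CPM at 14 h. It was not called at 2 h (0.67 ± 0.25, edgeR adjusted p = 0.497), although the 2 h groups did not overlap (7.7, 4.7, 5.83 and 4.96 CPM in control and 9.58, 9.51, 8.15 and 8.36 CPM with IFN-β), and rose by 5.89 ± 0.36 (edgeR adjusted p = 1.33e-08) at 14 h. Footprints of H2-T22 rose at 2 h (edgeR adjusted p = 0.0061) and by 4.17 at 14 h, those of H2-Q4 by 2.27 and 5.16, and of Gm8909 by 5.28 at 14 h. Class I genes have near-identical copies, and how their reads were shared out between copies is uncertain here.

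The promoters of these partners are shown because 3 of the 48 RefSeq promoters (GRCm38.p6) of partners of members called higher at either time hold GAAANNGAAA, the core of the interferon-stimulated response element (ISRE), on either strand. Among all 32851 promoters of the same length, 250 bases before to 50 after the start, 3.44% hold it, against 6.25% of these 48. Of the 15 promoters matched to the members called higher themselves, 0 hold it, and of the 317 matched to any member 11 (3.47%) do. TTCNNNGAA, the gamma-activated site (GAS), was in 8.30% of all promoters, 12.5% of these partners' and 7.57% of the members'. Capitals mark the motif, ISRE for Gbp2 and H2-T22 and GAS for Ifi35, at chr3:142620413-142620712 (plus strand), chr17:36042693-36042992 (minus) and chr11:101448162-101448461 (plus). The third promoter with ISRE is that of Etv6, the partner of Gm17089. The matched promoters of Ifi35, Psmb8, H2-Q4 and Gm8909 hold no ISRE match, and those of Psmb8, H2-Q4 and Gm8909 are not shown. A match of these letters is a description and not a binding site.
Gbp2 promoter: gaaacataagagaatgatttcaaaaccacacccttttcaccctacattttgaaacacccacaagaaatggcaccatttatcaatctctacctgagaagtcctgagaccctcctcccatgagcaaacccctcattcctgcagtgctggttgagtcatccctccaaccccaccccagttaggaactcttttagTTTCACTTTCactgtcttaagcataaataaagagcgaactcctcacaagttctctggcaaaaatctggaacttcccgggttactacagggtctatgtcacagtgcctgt
H2-T22 promoter: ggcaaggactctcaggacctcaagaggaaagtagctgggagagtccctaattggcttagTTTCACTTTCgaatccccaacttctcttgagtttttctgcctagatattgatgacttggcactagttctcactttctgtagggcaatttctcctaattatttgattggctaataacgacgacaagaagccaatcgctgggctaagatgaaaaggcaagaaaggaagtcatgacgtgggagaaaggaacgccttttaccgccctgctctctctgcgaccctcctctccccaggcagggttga
Ifi35 promoter: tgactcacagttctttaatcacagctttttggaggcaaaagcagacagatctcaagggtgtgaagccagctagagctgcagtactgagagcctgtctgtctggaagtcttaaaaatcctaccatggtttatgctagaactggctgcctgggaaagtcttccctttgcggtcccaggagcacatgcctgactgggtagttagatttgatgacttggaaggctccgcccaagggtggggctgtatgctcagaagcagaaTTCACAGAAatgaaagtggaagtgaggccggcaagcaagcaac

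The other 5 members that rose at 2 h lay opposite Spsb1, Cish, Arhgap26, Etv6 and Ndrg1. Gm13070, opposite Spsb1, an adaptor of ubiquitin ligases, had 41, 37.3, 35.3 and 16.3 CPM in control and 192, 217, 232 and 269.7 CPM with IFN-β at 2 h and 38.3, 38.5, 27.8 and 31.6 CPM and 119, 129, 113 and 135 CPM at 14 h. It rose by 2.84 ± 0.33 (edgeR adjusted p = 7.10e-04) at 2 h and 1.81 ± 0.19 (edgeR adjusted p = 9.92e-06) at 14 h, and Spsb1 footprints by 2.74 and 1.84. The groups did not overlap at either time, and the 14 h change was not detectably different from the 2 h one (-0.96, adjusted p = 0.329). Gm17041, opposite Cish, a feedback inhibitor of cytokine signalling, rose by 1.83 ± 0.33 (edgeR adjusted p = 0.0226) at 2 h and 0.78 ± 0.22 (edgeR adjusted p = 0.0423) at 14 h, with Cish footprints at 1.76 and 0.70. Its call at 14 h was lost in 9 of 14 alternatives.

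Gm15336, on chromosome 18 and opposite Arhgap26, had 42.5, 64.7, 60.4 and 62.6 CPM in control and 179.7, 245, 231 and 178 CPM with IFN-β at 2 h, and 17.6, 25.1, 20.5 and 26.2 CPM and 20.3, 21.1, 24.3 and 22 CPM at 14 h. Its groups were apart at 2 h and overlapped at 14 h, and the difference between the times was called (-1.89, adjusted p = 0.00435; 2 h change 1.89 ± 0.26, edgeR adjusted p = 0.00238). Arhgap26 was one of the 35 partners with more total RNA counts than the member, with a mean of 2556, and its footprints changed by 0.63 and 0.33. Gm17089, opposite the transcription factor gene Etv6, had 28, 35.5, 36.2 and 25.2 CPM and 61.8, 71.9, 70.7 and 71.5 CPM at 2 h, a rise of 1.18 ± 0.23 (edgeR adjusted p = 0.0382). At 14 h it changed by -0.34, and the difference between times was called (-1.44, adjusted p = 0.0318). Etv6 footprints followed the same course, with 1.90 at 2 h and -0.01 at 14 h.

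Gm17035, opposite the stress-response gene Ndrg1, rose by 1.23 ± 0.25 (edgeR adjusted p = 0.0393) at 2 h, while Ndrg1 footprints changed by 1.08 with an adjusted p of 0.149, which became 9.16e-06 in edgeR when replicates were blocked by number. The 1 member that fell at 2 h was Gm11714, which lies opposite the gene body of Pitpnc1, a lipid transfer protein, and shares no exon with it. It had 35.3, 62.1, 39.9 and 29.1 CPM in control and 8.17, 13.8, 16.5 and 11.1 CPM with IFN-β, a fall without overlap (-1.71 ± 0.31, edgeR adjusted p = 0.0232), and changed by -0.33 at 14 h. Pitpnc1 footprints changed by -0.32 at 2 h with an adjusted p of 0.619. The calls of Gm17041, Gm17035, Gm17089 and Gm11714 at 2 h were lost under several of the alternatives given at the end.

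The deepest falls at 14 h outside these 6 rows were on members opposite genes of the Hist1 and Hist2 clusters, whose histones package DNA and are made mostly during DNA replication. There were 5 such members, and all 5 fell at 14 h and none changed at 2 h, with medians of -2.14 and 0.24. This group was formed after the values were seen, and Gm17275, opposite the histone variant gene H3f3a outside these clusters, changed by 0.50 at 14 h and was not called. Gm20628 (chr3:96267075-96270289, minus strand) had 8405, 8266, 10783 and 6785 CPM in control and 1757, 1766, 2353 and 1397 CPM with IFN-β at 14 h, a change of -2.29 ± 0.26 (edgeR adjusted p = 1.98e-05). Its partner by footprints was Gm42743, annotated as a lincRNA, with 257 shared bases. Gm20628 also shares 488 bases with Hist2h3b and 381 with Hist2h2bb. Footprints on Gm42743 changed by -2.38.

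Gm20632 (chr3:96239393-96241819, plus strand), opposite Hist2h2aa2, had 9999, 13207, 9861 and 7334 CPM and 2486, 2845, 1998 and 3234 CPM at 14 h, and changed by -1.97 ± 0.26 (edgeR adjusted p = 1.12e-04). Hist2h2aa2 footprints changed by -1.92. Hist2h2aa2 had 1 total RNA count over the 16 libraries, where Gm20632 had 5597 to 53502 in each. Gm20633, opposite the near-identical copy Hist2h2aa1, changed by -2.05 ± 0.32 (edgeR adjusted p = 6.26e-04), from 1687, 1008, 1459 and 568 CPM to 421, 208, 279 and 267 CPM, and Hist2h2aa1 footprints changed by -2.23. The groups of both members were apart at 14 h, and how reads were shared out between the copies is uncertain.

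Gm15444, opposite Hist2h2ab, had 359, 216, 437 and 149.6 CPM in control and 82.2, 47.8, 62.1 and 54.1 CPM with IFN-β at 14 h (-2.28 ± 0.31, edgeR adjusted p = 1.84e-04). Hist2h2ab footprints changed by -2.14, and its own total RNA by -1.50. 4930558J22Rik (chr13:23755822-23757620, minus strand), opposite Hist1h4b, had 4491, 3215, 5308 and 2415 CPM and 1070.2, 803, 789 and 972 CPM (-2.14 ± 0.28, edgeR adjusted p = 1.00e-04), with footprints at -1.96. At 2 h control and IFN-β values of all 5 members overlapped. The difference between the times was called for Gm20628 and Gm15444 and not for the other 3, with adjusted p of 0.0538 to 0.111.

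**Figure D4:**
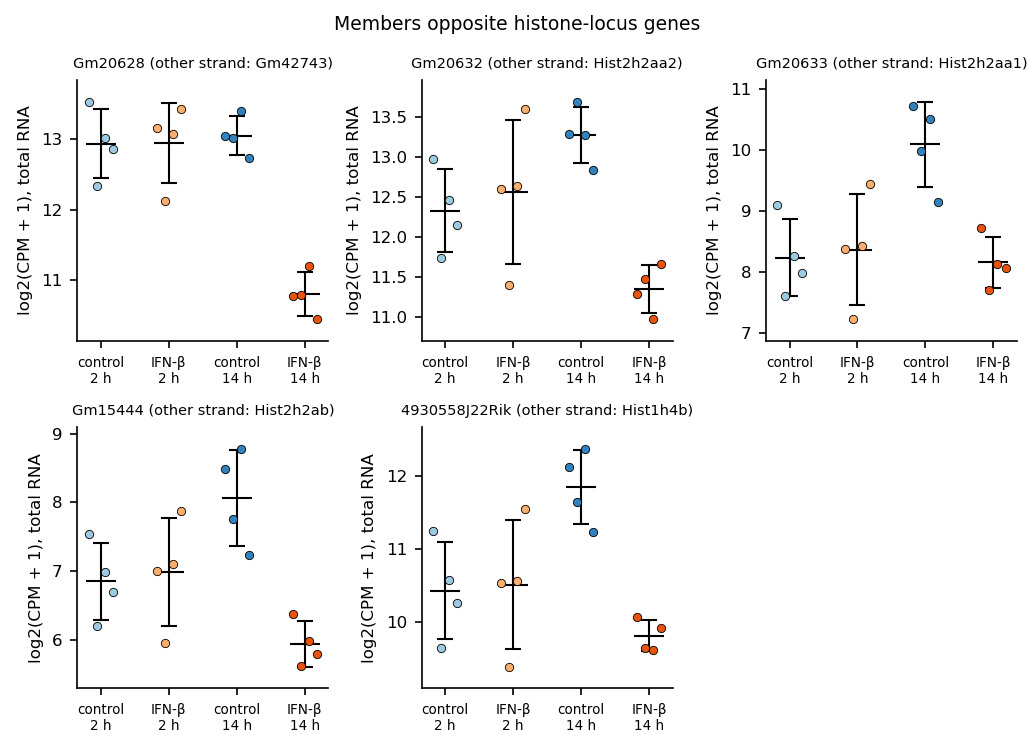
Total RNA level, log2(CPM + 1), of the 5 members opposite histone-locus genes in each library, with bars for the group mean and whiskers for 1 SD (n = 4); vertical axes do not start at 0. At 14 h every IFN-β library lies below every control library, and at 2 h the groups overlap.

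Beyond the histone loci, Gm12743, opposite Orc1, a subunit of the complex that marks replication origins, had 35.6, 36.8, 33.7 and 30.8 CPM in control and 10.6, 9.79, 13.9 and 10 CPM with IFN-β at 14 h, a fall without overlap (-1.66 ± 0.21, edgeR adjusted p = 8.37e-05). Orc1 footprints changed by -2.27. Gm2788, opposite the cell cycle transcription factor gene E2f8, changed by -1.53 and E2f8 footprints by -1.77, Gm10143, opposite the flap endonuclease gene Fen1, by -1.06 and -1.51, and Gm26765, opposite the nuclear lamina gene Tmpo, by -1.05 and -1.31. These 3 were picked after their values were seen.

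Among the rises at 14 h below the interferon group, Gm15441 lies opposite Txnip, an inhibitor of thioredoxin. It had 6.52, 4.46, 8.78 and 4.57 CPM in control and 23.5, 22.6, 33.9 and 17.5 CPM with IFN-β (2.06 ± 0.30, edgeR adjusted p = 2.52e-04). At 2 h replicate 3 was far above the other 3 in both groups (38.3, 820.3, 83.7 and 95.2 CPM in control and 16.8, 397, 43.8 and 28.8 CPM with IFN-β). The change of -1.09 ± 1.06 was not called in the fit without the replicate block, although the IFN-β library was the lower in every same-numbered pair. Txnip footprints changed by -1.54 at 2 h (edgeR adjusted p = 0.643 without the replicate block) and were not tested at 14 h. 5830418P13Rik, opposite Bfsp2, a lens filament protein, had 21.8, 11.7, 20.5 and 30.3 CPM and 97.8, 74.5, 86 and 66.1 CPM at 14 h (1.88 ± 0.26, edgeR adjusted p = 1.84e-04). Its change at 2 h was -0.63, and the difference between the times was called (2.59, adjusted p = 0.0206). Bfsp2 footprints changed by 1.56 at 14 h.

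The change at 14 h differed from that at 2 h in 14 members, higher in 10 and lower in 4, which is 1.86% of the members. Among all 11885 genes tested 0.53% were higher and 0.109% lower in this test. Genes with a CDS row were called in 0.517% of cases, and in 1.18% at a mean of at least 100 counts. The 6 largest differences were Gm20478 (5.32), Gm11626 (4.97), Dhx58os (4.21), Gm20496 (4.11), A930015D03Rik (3.98) and Gm11131 (3.02), all opposite interferon-stimulated or class I genes. All of these but A930015D03Rik had a control mean under 100 counts and reached the limit only through their IFN-β libraries. The members' share of 1.86% therefore depends in part on how they were chosen. Gm11670, opposite Axin2, a feedback inhibitor of Wnt signalling, went down at 2 h (-1.09) and up at 14 h (0.57), neither of which was called, with a called difference of 1.72 (adjusted p = 0.0214). It had 95.4, 82.2, 73.5 and 49.4 CPM in control and 23.7, 45, 38.1 and 31.8 CPM with IFN-β at 2 h, and 75.9, 55.7, 81.9 and 64 CPM and 95.1, 112, 90.3 and 124 CPM at 14 h, and the groups were apart at both times. Axin2 footprints were called lower at 2 h (-0.80, adjusted p = 0.0401) and higher at 14 h (0.56, 5.05e-05). Gm13405, opposite Gpr107, and ENSMUSG00000085119, which is not in GENCODE M21, changed by 1.40 and 1.11 at 14 h, with differences of 1.68 and 1.81. Gpr107 footprints changed by 0.39 at 14 h (edgeR adjusted p = 4.25e-05).

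The plot of member against partner change shows how the total RNA of a member moved with the footprints of its partner. Among the 514 partners tested in footprints at 2 h, 35 were called higher and 11 lower, and with the replicate block 88 and 89. At 14 h 172 and 112 of 509 were called. In all genes tested, 5.25% were higher and 2.01% lower in footprints at 2 h, and 26.2% higher and 26.3% lower at 14 h. Of the 11 members with a partner that rose at 2 h, 10 had a partner with higher footprints, and with the block all 11 did. Over all 528 members with a tested partner, 36 (6.82%) had a partner higher and 12 (2.27%) one lower. With the block 92 had a partner higher and 94 one lower.

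At 14 h, 43 members with a partner rose. The partner's footprints were higher for 40, lower for 1 and not tested for 2. Of the 26 that fell, the partner was lower for 22, higher for 1, not called for 2 and not tested for 1. These 62 pairs of the same direction numbered 28 with total counts alone and 27 to 54 with 1 library left out, with 27 without IFN-β replicate 1, 30 without replicate 2 and 40 without control replicate 4. Over all 523 members with a tested partner, 34.2% had one higher and 22.2% one lower. The pairs that went opposite ways were Gm2415 (0.88) with Ctdspl footprints at -0.61 and 4930524O07Rik (-0.99) with Manf at 0.50, both named after their values were seen. The partner's own total RNA had enough counts to be tested for 16 of the 43, of which 4 were called higher, and for 15 of the 26, of which 2 were called lower, and none was called the other way.

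The Spearman correlation between the log2 fold change of a member's total RNA and that of its partner's footprints was 0.66 over 528 pairs at 2 h and 0.64 over 523 at 14 h. Among members not called it was 0.64 (517 pairs) and 0.50 (457). For the partners whose own total RNA could be tested, the correlation of that RNA with their own footprints was 0.33 (418 pairs) at 2 h and 0.16 (292) at 14 h, while the members opposite these same partners gave 0.67 and 0.60. Genes with a CDS row and no annotated gene on the other strand gave 0.33 (3531) and 0.24 (1809) between their total RNA and their footprints. The depth of these comparisons differed. Over the 541 pairs the median total RNA count was 442 for members and 20.7 for partners, and what this difference does to the correlations was not tested. These correlations are across genes, the 2 kinds of library share lysates, and partners are shared by 28 members, so that they carry no p-value. The median change of a member was 0.97 at 2 h where the partner's footprints were higher, -0.66 where they were lower and -0.01 where they were not called, and 0.39, -0.36 and 0.09 at 14 h.

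**Figure D5:**
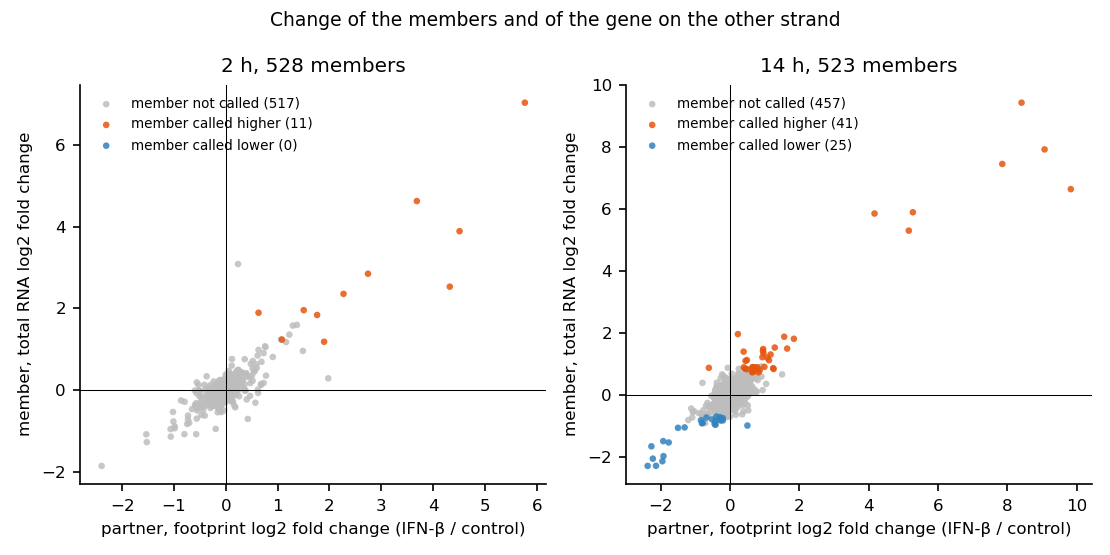
Log2 fold change (IFN-β over control) of each member's total RNA (vertical axis) against that of its partner's CDS footprints (horizontal axis), at 2 h (528 pairs) and 14 h (523 pairs), with called members marked. Called members mostly lie where both changes have the same sign, and the Spearman correlations over all pairs are 0.66 and 0.64.

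Among partners called without the replicate block, the 3 with the largest footprint falls at 2 h gave members with changes of the same sign that were not called. Gm16010, opposite Spsb4, changed by -0.77 and its partner by -1.01 (edgeR adjusted p = 8.16e-04). Nkx2-2os, opposite the oligodendrocyte lineage factor gene Nkx2-2, changed by -0.54 and its partner by -1.02. Rapgef3os1, opposite Rapgef3, an exchange factor activated by cyclic AMP, changed by -0.90 at 2 h and 0.58 at 14 h, and Rapgef3 footprints by -0.99 and 0.55, both called.

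None of the 10 members with the highest mean CPM changed at 2 h. Per exon length, Gm26694 (chr17:25794894-25964784, plus strand), opposite the growth factor gene Metrn, stood at 12434 CPM per kb over the 16 libraries, Gm26904, opposite Bicral, at 6396, 8030451A03Rik, opposite the matrix protein gene Tnc, at 3583, and 6030443J06Rik, a lincRNA with no partner, at 1654. The largest mean count after Gm26694, at 62402, was that of 8030451A03Rik, whose partner Tnc had a mean of 198.5 total RNA and 20897 footprint counts. The log2 fold changes of these 4 at the 2 times lay between 0.02 and 0.49, with no call. At 14 h footprints changed by 0.42 on Metrn (edgeR adjusted p = 0.00192), by 0.38 on Tnc (0.00553) and by -0.07 on Bicral (0.589). ENSMUSG00000092267, with a mean of 59302 counts and no entry in GENCODE M21, rose by 0.88 at 14 h (adjusted p = 0.0496), a call lost in 9 of 14 alternatives.

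The 3 lowest changes called at 14 h rested on 1 library. Gm42418, annotated as a lincRNA, had 2156, 6229, 787919 and 2162 CPM in the control and 1382, 2874, 1329 and 2455 CPM in the IFN-β libraries at 14 h, where the third control is the library with 39.3% of its counts on this row. Its change was -6.75 ± 1.61 (edgeR adjusted p = 0.0184), and without that library -0.83 (0.21). Mir6236 changed by -5.41 ± 1.29 (edgeR adjusted p = 0.0183) and without it by -1.35 (0.11), and Gm24187 by -5.97 ± 1.53 (edgeR adjusted p = 0.0262) and without it by -0.25 (0.78). Without that library none of the 3 was called.

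Of lists of noncoding genes known from other work, the long nuclear and cytoplasmic RNAs had 33 rows, of which 6 were members: Airn, the antisense RNA of the imprinted Igf2r locus, with a mean of 4511 counts, Malat1 with 522, Pvt1 with 405, Pantr1 with 164, C130071C03Rik with 122 and Dleu2 with 100.1. None was called at either time, and 17 of the 33 rows had a mean under 10 counts. As the strand setting of the counting is not known, these counts cannot be read as levels of the noncoding RNAs alone. Of 32 rows of small structured RNAs 8 were members, among them Rmrp, Rpph1, Rny3, Rn7s1 and Rn7s2, and those called were Gm42418 and Gm24187. None of the 16 rows of snoRNA host genes was a member. The median mean count was 9.25 for the long RNAs and 1.59 for the snoRNA hosts.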

How the data were processed

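The deposited files hold raw counts per gene for total RNA and for footprints in CDS. The authors trimmed reads with Trim Galore (0.4.4 in the submitters' processing notes), mapped them with Bowtie (0.12.7) to Ensembl transcripts of mm10 and took out duplicates. Counting was done with SummarizeOverlaps in Union mode, over gene bodies for total RNA. In this mode a read that overlaps several features is not counted. The methods call replicates different mice or NSC cultures from different mice.

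Members and gene lists were chosen with earlier results of these data known. Annotation was GENCODE M21 (GRCm38), and 727 members matched by identifier. A partner is the gene on the other strand with a CDS row, at least 1 shared exon base and the highest mean footprint count. Whole tables were fitted with edgeR 4.0.16 in R 4.3.3 (quasi-likelihood test, two-sided, TMM scaling, at least 10 counts in at least 4 libraries, Benjamini-Hochberg adjustment, threshold 0.05), 4 against 4 libraries at each time, and all 16 for the difference of the changes. CPM use TMM-scaled library sizes and ± is the standard error of a log2 fold change unless stated. DESeq2 1.42.0 was an alternative. Each fit was tested on simulated data. Figures and tables used Python 3.11.15.

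Same-numbered footprint samples deviated together (correlations of 0.33 to 0.81 at 2 h and 0.19 to 0.42 at 14 h), so the numbers pair them. Total RNA samples did not (-0.48 to 0.39 and -0.01 to 0.26). They came from the same lysates, so these correlations cannot show that they are unpaired. The main fits of footprints and of total RNA left the pairing by number out, and adjusted p-values are without it unless the replicate block is named.

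Members were named by rule: the 10 highest by mean CPM, up to 8 called changes in each direction at each time, members of the lists, partners with the 5 largest footprint rises and 3 largest falls, 3 on each side of the count limit, and up to 5 called differences between times in each direction. Gm17041, Gm17035, 5830418P13Rik, Gm11670, Gm13405, ENSMUSG00000085119 and the members opposite E2f8, Fen1, Tmpo, Ctdspl and Manf fall outside it and were chosen after their values were seen.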

Additional observations from a re-analysis of the deposited data

Results flagged for a closer look

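Dixon's test for 1 sample far from the other 3 of its group (95% critical value) was met in 9 of 80 groups of 20 named changed members, where chance gives about 5% of groups, and in the share of library counts on the members. For that share the ratio was 0.869 in control at 14 h, where replicate 3 was high, and 0.930 in control at 2 h, where replicate 5 was low. Control replicate 3 at 14 h was the high sample for Gm42418 (0.995), Gm24187 (0.994) and Mir6236 (0.981). In control at 14 h the ratio of Mir6381 was 1, from 1 count in 1 library. Gm15441 was high in replicate 3 of both groups at 2 h (0.927 in control and 0.929 with IFN-β), and Mir6381 was high in IFN-β replicate 3 at 2 h (0.863). The other groups were A930015D03Rik in control at 2 h (0.890) and Gm17089 with IFN-β at 2 h (0.878).

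The change at 14 h differed from that at 2 h, on the log2 scale and in edgeR's test of the difference, by 5.32 for Gm20478, 4.97 for Gm11626, 4.21 for Dhx58os, 4.11 for Gm20496, 3.98 for A930015D03Rik, 3.02 for Gm11131, 2.59 for 5830418P13Rik, 1.81 for ENSMUSG00000085119, 1.72 for Gm11670 and 1.68 for Gm13405. It differed by -1.44 for Gm17089, -1.89 for Gm15336, -2.26 for Gm20628 and -2.43 for Gm15444.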

How the results depend on the processing

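The number of members called at 2 h (12) was 24 with DESeq2, 13 with total counts alone and 6 to 11 with 1 library left out, at its lowest without IFN-β replicate 2 or 5 (6 each) and without replicate 6 (7). At 14 h (87) it was 37 with total counts alone, a scaling that moved the median log2 change of all genes from -0.01 to 0.09 (at 2 h from 0.04 to 0.23), and 35 to 79 with 1 library left out (without IFN-β replicate 1 35, 2 39, 3 57 and 4 53, without control replicate 4 57). The differences between times (14) numbered 39 with DESeq2, 30 without a filter on low counts and 8 to 20 with 1 library left out, at 8 without IFN-β replicate 1 at 14 h. Called members whose partner's footprints moved the same way (10 at 2 h, 62 at 14 h) numbered 18 with DESeq2 at 2 h and 28 with total counts alone at 14 h, and 6 to 9 and 27 to 54 with 1 library left out (without IFN-β replicate 1 27, 2 30, without control replicate 4 40). The partners called in footprints (46 at 2 h, 284 at 14 h) were 29 to 52, at 29 without IFN-β replicate 5, and 258 to 291. With the replicate block, 177 partners were called at 2 h, all 46 among them, and 348 at 14 h. In total RNA 3 of 8 samples correlated best with their own number. These libraries came from the same lysates as the footprints, so weak correlations cannot show that the samples are unpaired. In total RNA the block gave 9 members at 2 h, 88 at 14 h and 14 differences. The causes were not tested. With a mean of 50 or 200 counts there were 963 or 543 members, with the mean over control libraries alone 729, and an exon partner of at least 50 shared bases was found for 520 members. Each of the members opposite interferon-list genes and Hist1 or Hist2 genes kept its call at 14 h in every alternative run for it. For the interferon-list members other than A930015D03Rik a rise was fixed by the rule. The Hist1 and Hist2 group was formed after the values were seen, so that these kept calls are a description. Calls at 2 h were lost by Gm17035 in 11, Gm17089 in 10, Gm17041 in 8 and Gm11714 in 6 of 14 alternatives, and the difference between times by Gm15444 in 14, Gm11670 and Gm17089 in 10 each, and 5830418P13Rik in 6 of 22. At 14 h Gm17041 lost its call in 9 of 14. Total RNA at 14 h had the lowest total counts, and what depth limits there was not tested.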

Other observations

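Members without a partner on the other strand also changed at 14 h, and were compared with the gene whose body they face or the nearest gene with a CDS row. Ccdc34os, which faces the gene body of Ccdc34, changed by -1.11 (edgeR adjusted p = 0.00869) and Ccdc34 footprints by -0.84. A330040F15Rik overlaps Fam111a, a gene of DNA replication, and changed by -1.09, with Fam111a footprints called lower (edgeR adjusted p = 1.64e-10). Gm11650, in the body of Cacng4, changed by -1.19 and Cacng4 footprints by -0.71, and Gm16343, in the body of Hyal1, by 0.84 and 0.92. In Gm26854 (-1.24), opposite the body of Oxr1, the footprints changed by -0.15. Of the lincRNAs facing no annotated exon and no body of a gene with a CDS row, 0610043K17Rik rose by 1.01 (edgeR adjusted p = 0.0249). It lies 88501 bases from Jak1, a kinase of the interferon receptor, whose footprints rose by 0.93 at 2 h and 0.37 at 14 h. D030068K23Rik, of the same class, rose by 1.00 (edgeR adjusted p = 0.00308), 274200 bases from the nearest gene with a CDS row. These were chosen after their values were seen.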
